A study of Mus musculus with 12 samples.

Results

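The genes examined were the 6 that carry the change of contractile isoforms known from heart development and overload, out of 18079 genes measured in left ventricular muscle of mice. They were taken by symbol, through the NCBI Gene identifiers of the deposited table, and all 6 were found. They are the myosin heavy chain genes Myh6, Myh7 and Myh7b, the sarcomeric actin genes Actc1 and Acta1, and the troponin I gene Tnni1. The ratios Myh7/Myh6 and Acta1/Actc1 were also taken within each mouse. Male C57BL/6 mice (C57BL/6J in the study's methods), labelled as 8 weeks old, underwent aortic banding (AB), in which the aorta is narrowed so that the left ventricle works against a raised pressure, or Sham surgery without the narrowing. They were given hispidulin, a plant flavone, at 20 mg/kg/day by intraperitoneal injection, or its solvent DMSO, from 1 day ahead of surgery until the hearts were taken 4 weeks later, at an age of 12 weeks. The 4 groups, each of 3 mice with 1 library each, were DMSO+Sham, DMSO+AB, Hispidulin+Sham and Hispidulin+AB, all of the same strain and none carrying a transgene. Polyadenylated RNA was read as single-end reads of 50 bases and given as FPKM, a read number scaled by transcript length and library size, so that levels of different genes can be set side by side.

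Each contractile unit of heart muscle is built from thick filaments of myosin and thin filaments of actin with troponin and tropomyosin, and most of these proteins come in isoforms encoded by separate genes. The adult mouse ventricle uses alpha myosin heavy chain (Myh6), a fast motor, cardiac alpha actin (Actc1) and cardiac troponin I (Tnni3), while the fetal ventricle also uses the slower beta myosin heavy chain (Myh7), skeletal alpha actin (Acta1) and slow skeletal troponin I (Tnni1). Return of fetal isoforms in the adult ventricle is a long-known mark of pressure overload. Serum response factor binds CArG boxes and TEAD factors bind MCAT elements, and both kinds of element are known in promoters of muscle genes.

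The 250 bases ahead of the annotated start of the actin pair and of the myosin pair are shown because 1 gene of each pair, Acta1 and Myh7, passed the test between AB and Sham over both drug arms and its partner did not. They come from RefSeq on the GRCm38.p6 build and lie at chr8:123894776-123895025 for Acta1, chr2:114052876-114053125 for Actc1, chr14:54966608-54966857 for Myh6 and chr14:54994627-54994876 for Myh7, all on the minus strand. Myh7 has 2 starts in that table, and the one farther upstream was used. Capitals mark CArG boxes and the MCAT element CATTCC, which were searched on both strands and do not overlap each other here.
Acta1: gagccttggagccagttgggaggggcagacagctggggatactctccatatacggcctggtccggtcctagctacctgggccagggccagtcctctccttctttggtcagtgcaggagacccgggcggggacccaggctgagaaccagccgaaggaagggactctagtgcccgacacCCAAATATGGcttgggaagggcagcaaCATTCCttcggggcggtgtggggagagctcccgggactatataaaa
Actc1: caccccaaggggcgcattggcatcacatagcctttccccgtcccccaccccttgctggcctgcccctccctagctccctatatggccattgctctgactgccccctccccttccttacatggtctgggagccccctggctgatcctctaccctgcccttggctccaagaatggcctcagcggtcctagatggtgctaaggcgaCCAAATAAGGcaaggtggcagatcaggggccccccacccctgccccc
Myh6: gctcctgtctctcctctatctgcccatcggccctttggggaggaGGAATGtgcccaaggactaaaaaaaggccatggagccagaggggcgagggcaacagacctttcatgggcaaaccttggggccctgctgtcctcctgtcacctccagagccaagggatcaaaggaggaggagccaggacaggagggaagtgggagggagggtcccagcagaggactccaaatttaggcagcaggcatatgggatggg
Myh7: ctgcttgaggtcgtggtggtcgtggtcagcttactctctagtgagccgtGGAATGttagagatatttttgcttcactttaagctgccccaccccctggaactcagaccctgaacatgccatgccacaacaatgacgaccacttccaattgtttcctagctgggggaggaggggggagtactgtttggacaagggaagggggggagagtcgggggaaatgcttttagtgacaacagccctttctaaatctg
Both actin windows held a CArG box, 64 to 73 bases ahead of the start in Acta1 and 38 to 47 bases ahead in Actc1, as did 1.47% of 32851 mouse promoter windows of this length. Acta1 also held a MCAT element at 41 to 46 bases, and the pair of motifs occurred together in 0.186% of the windows. The Myh6 and Myh7 windows each held the MCAT element on the opposite strand, at 201 to 206 and 196 to 201 bases ahead of the start, against 12.6% of all windows. GATAA was in none of the 4 windows and in 22.6% of all windows, and TATAAA was in the Acta1 window alone of the 4 and in 12.4% of all windows. These matches describe the letters and not binding, which was not measured.

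Summed over genes, the FPKM per mouse came to 535235 to 567027, the depth is unknown, and no counting error can be given. The 7 cardiomyocyte markers were present in every mouse at summed levels of 31071 to 40504 FPKM. DMSO+Sham mouse 3 stood apart, with 17 genes lower and 90 genes higher than in each of the other 11 mice by over 1 on the log2 scale, against at most 4 and 12 genes in any other mouse. The atrial light chain gene Myl7 exceeded 20 FPKM in 3 mice only, at 333 in Hispidulin+Sham mouse 3, 67.5 in DMSO+AB mouse 2 and 42.3 in Hispidulin+AB mouse 3. Values without some of these mice are given below for Myh7, Myh7b, Acta1 and Actc1, and as counts of calls for the other listed genes. In whole tissue, fewer cells of a type and less RNA per cell cannot be told apart.

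**Figure D1:**
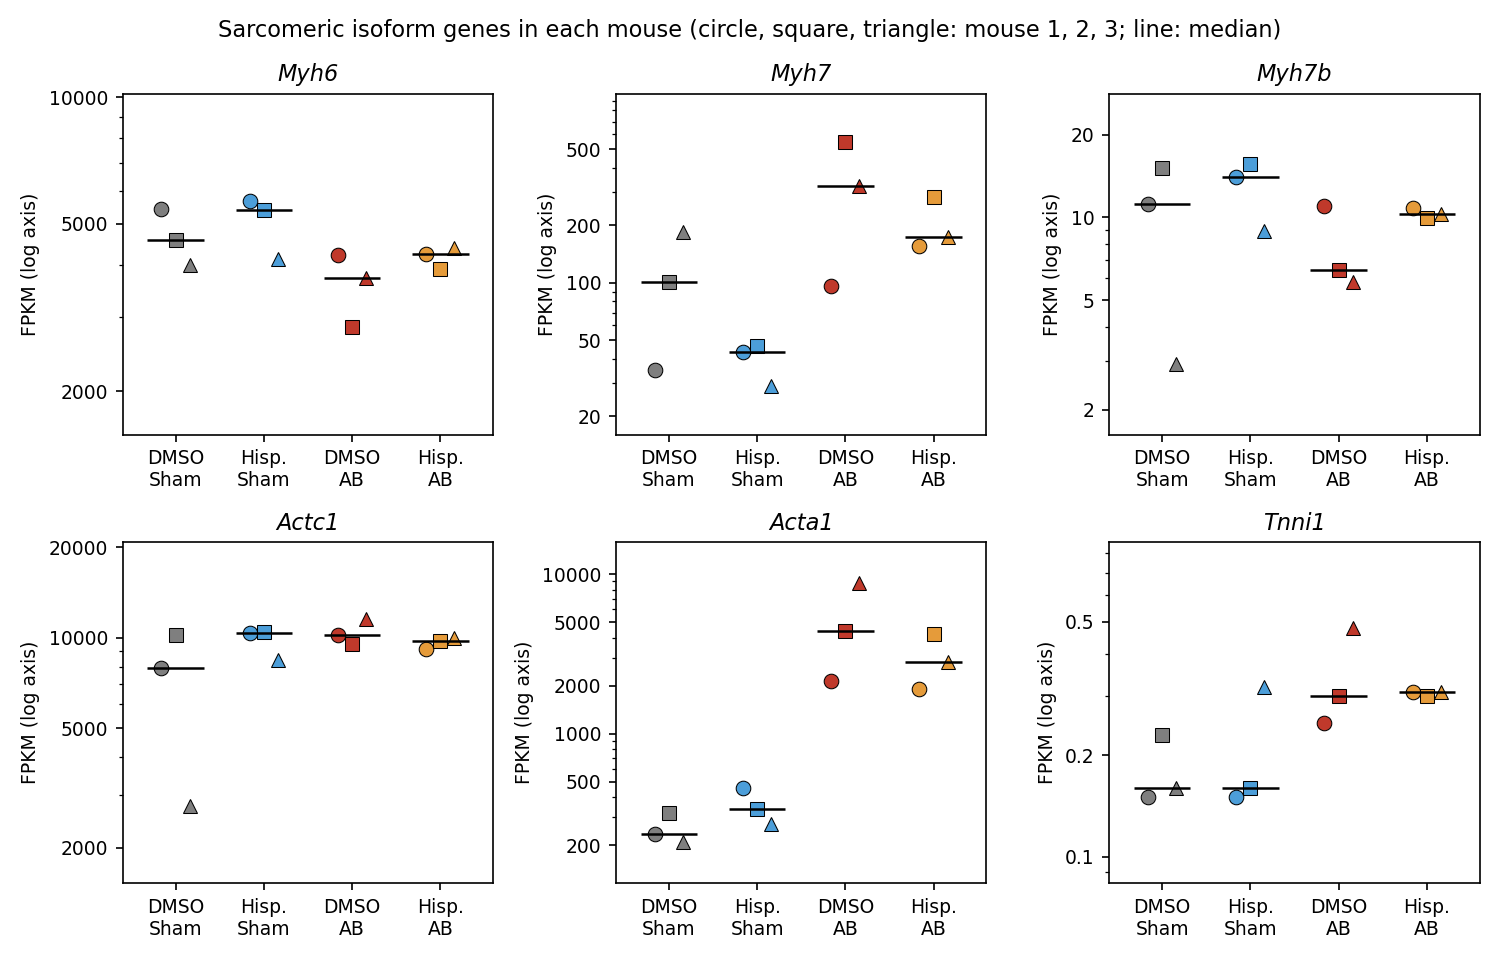
FPKM of the 6 genes in each of the 12 mice, on log axes, with 1 symbol per mouse (circle, square and triangle for mouse 1, 2 and 3 of a group) and a line at the group median. Acta1 is at 1893 or more in the 6 AB mice and at 456 or less in the 6 Sham mice, Myh7 overlaps between AB and Sham, and Actc1 is lowest in DMSO+Sham mouse 3.

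Myh7 was higher after AB over both drug arms, while the far more abundant Myh6 passed only in a fit with library weights. Myh6 was among the most abundant transcripts, at rank 10 to 18 of 18079 genes by FPKM, and Myh7 ranged from rank 161 to rank 2451. The FPKM of Myh7 in mice 1, 2 and 3 was 35.2, 101 and 185 in DMSO+Sham and 95.9, 545 and 323 in DMSO+AB. With hispidulin it was 43.5, 46.7 and 28.9 after Sham surgery and 156, 281 and 175 after AB. All 3 Hispidulin+AB mice lay above all 3 Hispidulin+Sham mice, whereas DMSO+AB mouse 1 lay below DMSO+Sham mice 2 and 3. DMSO+AB mouse 2, the highest of the 12, was also 1 of the 3 mice with Myl7 over 20 FPKM.

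Between DMSO+AB and DMSO+Sham, the log2 fold change of Myh7 on the log2(FPKM + 1) scale was 1.55 (SE 0.62, adjusted p = 0.182 from limma), a difference that did not pass the 0.05 threshold. It ranged from 0.91 without DMSO+Sham mouse 1 to 2.25 without DMSO+AB mouse 1, with adjusted p = 0.482 and 0.031. With library weights it was 2.67 (adjusted p = 0.0145). In the hispidulin arm the log2 fold change was 2.31 (SE 0.62, adjusted p = 0.438), which passed when the fit held only the libraries compared (2.31, adjusted p = 0.00679) and with library weights (2.16, adjusted p = 0.0339). Over both arms, Myh7 was higher after AB by 1.93 on the log2 scale (95% confidence interval 0.97 to 2.89, adjusted p = 0.0228), about 3.81-fold. This call did not hold without Hispidulin+Sham mouse 1, Hispidulin+Sham mouse 3, DMSO+AB mouse 2, DMSO+AB mouse 3, Hispidulin+AB mouse 2 or Hispidulin+AB mouse 3, each left out alone, where the log2 fold change was 1.66 to 1.97 and adjusted p lay between 0.0502 and 0.0538. Nor did it hold when low genes were not filtered (1.93, adjusted p = 0.0505), and without the 3 mice with Myl7 over 20 FPKM the log2 fold change was 1.60 (adjusted p = 0.195).

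The adult motor gene Myh6 had FPKM values of 5419.6, 4569 and 3996 in DMSO+Sham mice 1, 2 and 3, and of 4219, 2838 and 3729 in DMSO+AB. In the hispidulin arm they were 5678, 5394 and 4117 after Sham surgery and 4248, 3901 and 4381 after AB. The groups overlapped in both arms, and the lowest value was in DMSO+AB mouse 2, which had the highest Myh7. The log2 fold change of Myh6 was -0.38 (SE 0.16, adjusted p = 0.215) in the DMSO arm and -0.27 (SE 0.16, adjusted p = 0.806) in the hispidulin arm. Over both arms it was -0.32 (95% confidence interval -0.58 to -0.07, adjusted p = 0.116). With library weights Myh6 passed as lower in the DMSO arm (-0.63, adjusted p = 0.030) and over both arms (-0.47, adjusted p = 0.00795), whereas without DMSO+AB mouse 2 the value in the DMSO arm was -0.22 (adjusted p = 0.502). Even in the mouse with the most Myh7, Myh7 was 16.1% of the FPKM of Myh6 and Myh7 together.

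Myh6 and Myh7 are neighbours that share part of their sequence, and their values are uncertain to the extent that reads can fit both. For both genes the longest protein-coding GENCODE transcript was divided into all windows of 50 bases, the length of a read here. Of these, 22.6% in Myh6 and 22.2% in Myh7 occur unchanged in a transcript of the other gene. Of the Myh7 windows, 28.2% occur in a transcript of any other gene, and 4.56% match Mhrt, a long noncoding RNA transcribed from the opposite strand of this locus. Whether the authors counted by strand is not given in the sources used here, and how shared reads were divided at the low Myh7 levels of Sham mice was not tested.

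Myh7b, a low-level relative of both motors, showed no difference that passed the test. Its FPKM was 11.2, 15.2 and 2.92 in DMSO+Sham mice 1, 2 and 3, and 10.97, 6.44 and 5.85 in DMSO+AB. With hispidulin it was 14.02, 15.7 and 8.93 after Sham surgery and 10.8, 9.93 and 10.3 after AB. The lowest value of all was in DMSO+Sham mouse 3, and the groups overlapped in both arms. The log2 fold change was -0.11 (SE 0.42, adjusted p = 0.908) in the DMSO arm and -0.73 (adjusted p = 0.131) without that mouse. It was -0.26 (SE 0.42, adjusted p = 0.956) in the hispidulin arm.

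Acta1, which encodes skeletal alpha actin, rose after AB and had the largest log2 fold change of the 5 members tested. Its FPKM in mice 1, 2 and 3 was 234, 320.15 and 208 in DMSO+Sham and 2140.6, 4373 and 8828 in DMSO+AB. With hispidulin the values were 456, 339 and 272 after Sham surgery and 1893, 4206 and 2824 after AB. Every AB mouse lay above every Sham mouse in both arms, and the gap between the lowest AB mouse and the highest Sham mouse was wider than the whole range of the Sham mice. By abundance, Acta1 ranged from rank 394 to rank 5 of 18079 genes, the latter in DMSO+AB mouse 3, which exceeded each other mouse by over 1 on the log2 scale.

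In the DMSO arm Acta1 rose by a log2 fold change of 4.12 (SE 0.43, adjusted p = 0.0032 from limma), or 17.4-fold with a 95% confidence interval of 9.06 to 33.3. It was the only 1 of the 5 members tested that passed there, against 5.21% of all 11664 genes tested (2.5% as higher), and the only one whose groups did not overlap, against 17.9% of all genes. Leaving out each mouse in turn gave log2 fold changes between 3.61 and 4.63, all with adjusted p under 0.05, the lowest being without DMSO+AB mouse 3. In the hispidulin arm the log2 fold change was 3.02 (SE 0.43, 8.10-fold, adjusted p = 0.0857), which did not pass. No gene passed by limma in that arm (0%), and an unadjusted p under 0.05 was found for 847. Blocking on the replicate number, a pairing taken from these data and not from labels, gave 17 calls, Acta1 among them (adjusted p = 0.0356). Acta1 also passed there with quantile normalization (adjusted p = 0.0369), with library weights (adjusted p = 0.00219) and with only the libraries compared (adjusted p = 0.00679). In the same arm 2 of the 5 members, Acta1 and Myh7, did not overlap between groups, against 20.9% of all genes.

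Over both arms Acta1 rose by 3.57 on the log2 scale (95% confidence interval 2.90 to 4.23, adjusted p = 0.000404), or 11.9-fold. Acta1 and Myh7 were the 2 of 5 members that passed, against 7.39% of all genes (3.52% as higher). Acta1 alone did not overlap between the 6 AB and 6 Sham mice, against 4.96% of all genes. Its call held under every alternative run for this comparison, with log2 fold changes between 3.31 and 3.82.

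The adult actin gene Actc1 was at rank 3 of all genes in the median mouse. Its FPKM in mice 1, 2 and 3 was 7909, 10201 and 2741 in DMSO+Sham and 10207, 9555 and 11562 in DMSO+AB. With hispidulin it was 10393, 10414 and 8442 after Sham surgery and 9185, 9748 and 9943 after AB. DMSO+Sham mouse 3 lay far below the other 11 mice, which spanned 7909 to 11562. The log2 fold change in the DMSO arm was 0.78 (SE 0.35, adjusted p = 0.235) and was 0.21 (adjusted p = 0.455) without that mouse, while leaving out DMSO+Sham mouse 2 gave 1.16 (adjusted p = 0.0472). In the hispidulin arm it was -0.01 (SE 0.35, adjusted p = 0.998), with a 95% confidence interval of -0.78 to 0.75.

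The fetal heart troponin I gene Tnni1 stayed at the edge of detection. It was listed at 0.15, 0.23 and 0.16 FPKM in DMSO+Sham mice 1, 2 and 3 and at 0.25, 0.30 and 0.48 in DMSO+AB. In the hispidulin arm it was listed at 0.15, 0.16 and 0.32 after Sham surgery and at 0.31, 0.30 and 0.31 after AB. The DMSO groups did not overlap, as in 17.9% of the genes tested, but Hispidulin+Sham mouse 3 lay just above all 3 Hispidulin+AB mice. No mouse reached the 1 FPKM required for the test, so Tnni1 was the 1 member not tested, and in a fit without that filter its log2 fold change over both arms was 0.15 (adjusted p = 0.125). Its adult counterpart Tnni3 was at a median rank of 8 and had mean FPKM values of 6064 ± 730 (SD, n = 3) in DMSO+Sham, 4795 ± 549 in DMSO+AB, 6339.6 ± 391 in Hispidulin+Sham and 5286 ± 532 in Hispidulin+AB. Over both arms Tnni3 had a log2 fold change of -0.30 (SE 0.08, adjusted p = 0.0521).

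**Figure D2:**
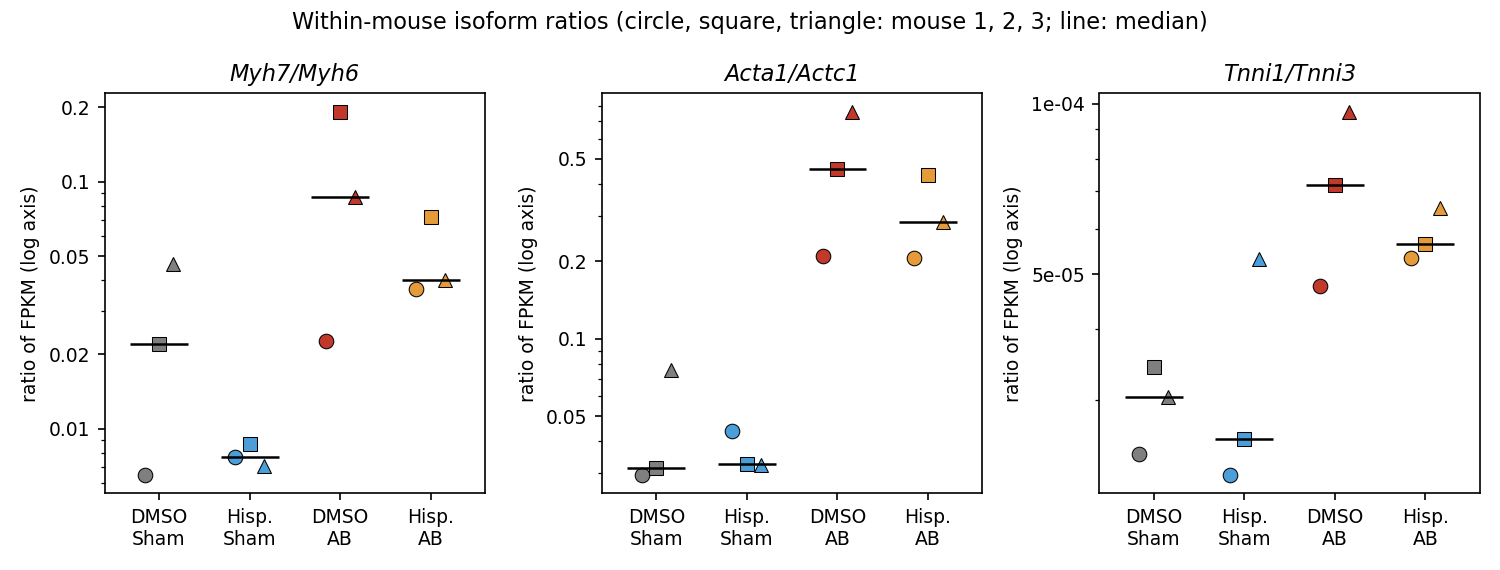
Ratios of FPKM within each of the 12 mice, on log axes, for Myh7/Myh6, Acta1/Actc1 and Tnni1/Tnni3, with 1 symbol per mouse and a line at the group median. Acta1/Actc1 is at or above 0.206 in AB mice and at or below 0.0759 in Sham mice, while Myh7/Myh6 of DMSO+AB mouse 1 (0.0227) and of Hispidulin+AB mice 1 (0.0367) and 3 (0.0399) lies within the range of all Sham mice, whose highest value is 0.0463.

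Taken within each mouse, the actin ratio was higher in all 6 AB mice than in any Sham mouse, and the myosin ratio was so in 3 of them. Acta1/Actc1 in mice 1, 2 and 3 was 0.0295, 0.0314 and 0.0759 in DMSO+Sham and 0.210, 0.458 and 0.764 in DMSO+AB. With hispidulin it was 0.0438, 0.0326 and 0.0322 after Sham surgery and 0.206, 0.431 and 0.284 after AB. The highest Sham ratio belonged to DMSO+Sham mouse 3, which had the lowest Acta1 as well as the lowest Actc1 of its group. Acta1 made up 4.32% ± 2.37 (SD, n = 3) of the FPKM of both actins in DMSO+Sham, 30.7% ± 13.0 in DMSO+AB, 3.49% ± 0.612 in Hispidulin+Sham and 23.1% ± 6.58 in Hispidulin+AB.

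The log2 ratio Acta1/Actc1 was higher after AB by 3.34 in the DMSO arm and by 3.03 in the hispidulin arm, each with p = 0.1 in an exact two-sided permutation test, the smallest p that 3 mice against 3 can give. Over both arms, with labels permuted within each arm, the difference was 3.19, or 9.11-fold (p = 0.005, the smallest of the exact test, adjusted p = 0.05 over 30 tests). That adjusted p equalled the threshold and was not under it. The within-mouse values were also compared among mice of the same number series in the sample descriptions. There the difference over both arms was 3.71 in the series holding 2 AB and 3 Sham mice and 2.62 in the series holding 4 AB and 2 Sham mice. DMSO+Sham mouse 1, alone in its series, entered neither.

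Myh7/Myh6 in mice 1, 2 and 3 was 0.00649, 0.0220 and 0.0463 in DMSO+Sham and 0.0227, 0.192 and 0.0865 in DMSO+AB. With hispidulin it was 0.00767, 0.00866 and 0.00703 after Sham surgery and 0.0367, 0.0721 and 0.0399 after AB. The 3 Hispidulin+Sham mice were close to each other, and the DMSO+Sham mice spanned a wide range that held DMSO+AB mouse 1. As a share of the FPKM of both motors, Myh7 was 2.41% ± 1.90 (SD, n = 3) in DMSO+Sham, 8.77% ± 6.98 in DMSO+AB, 0.772% ± 0.0812 in Hispidulin+Sham and 4.70% ± 1.76 in Hispidulin+AB.

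The log2 ratio Myh7/Myh6 differed by 1.94 in the DMSO arm (exact permutation p = 0.2) and by 2.61 in the hispidulin arm (exact permutation p = 0.1). In the DMSO arm it ranged from 1.18 without DMSO+Sham mouse 1 and 1.24 without DMSO+AB mouse 2 to 2.78 without DMSO+AB mouse 1. Over both arms the difference was 2.28, or 4.84-fold (exact permutation p = 0.01, adjusted p = 0.075). Within the number series it was 2.37 and 1.69 over both arms. In the DMSO arm it was 1.97 in the first series, with 1 mouse on each side, and 0.51 in the second, where the only Sham mouse was DMSO+Sham mouse 3.

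The Tnni1/Tnni3 ratio lay between 2.21e-05 and 9.67e-05 in all 12 mice. Its log2 value differed by 1.07 over both arms (exact permutation p = 0.005, adjusted p = 0.05). That difference was 0.45 when 1 was added to each FPKM, and the level of a single read is not known.

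The summed FPKM of both actins lay between 12348 and 20391 in DMSO+AB and between 2949 and 10521 in DMSO+Sham, a log2 difference of 1.27 (exact permutation p = 0.1), or 0.72 without DMSO+Sham mouse 3. It lay between 11078 and 13954 in Hispidulin+AB and between 8714 and 10849 in Hispidulin+Sham, a log2 difference of 0.32 (exact permutation p = 0.1). Over both arms the log2 difference was 0.79 (exact permutation p = 0.005, adjusted p = 0.05). Without that mouse it was 0.52. The AB and Sham mice did not overlap in this sum. For the sum of Myh6 and Myh7 the log2 difference over both arms was -0.24 (exact permutation p = 0.055, adjusted p = 0.25), and the groups overlapped.

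**Figure D3:**
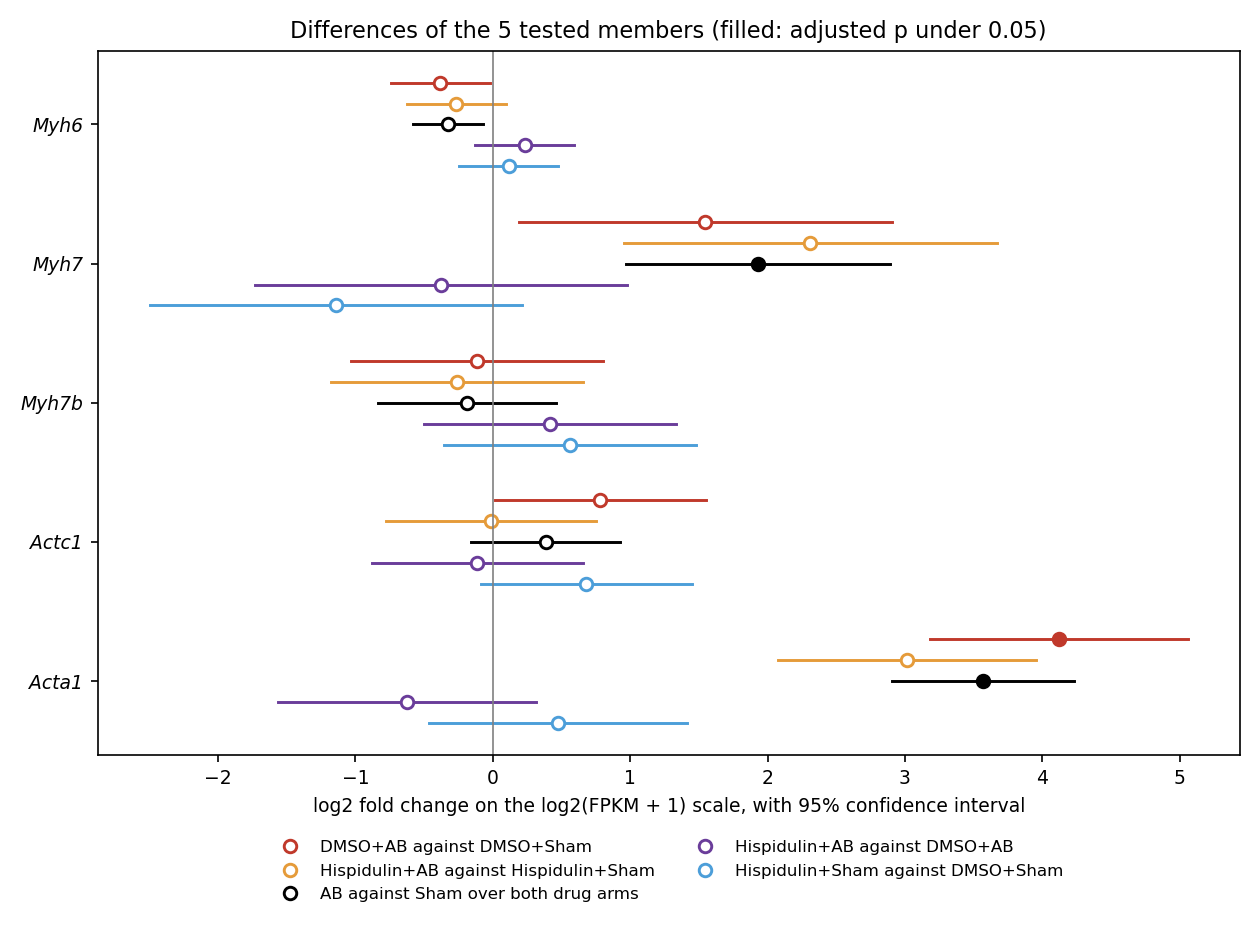
Log2 fold change with its 95% confidence interval for the 5 tested genes in 5 comparisons, from limma on log2(FPKM + 1), with filled points where the adjusted p is under 0.05. Filled points are Acta1 in the DMSO arm (4.12) and over both arms (3.57), and Myh7 over both arms (1.93); the comparisons of hispidulin with DMSO are all open.

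Whether hispidulin shifted these isoforms was asked in AB hearts, in Sham hearts and in the interaction of drug and operation. Between Hispidulin+AB and DMSO+AB, Acta1 had a log2 fold change of -0.63 (95% confidence interval -1.57 to 0.31, adjusted p = 0.996 from limma) and Myh7 of -0.38 (-1.73 to 0.98, adjusted p = 0.996). Myh6 had 0.23 (-0.13 to 0.59), Myh7b 0.42 (-0.50 to 1.34) and Actc1 -0.11 (-0.88 to 0.65). The groups overlapped for all 5 members, against 7.88% of all genes without overlap. No gene of the whole table passed by limma (0%), and 362 genes had an unadjusted p under 0.05. Without DMSO+AB mouse 1, 20 genes passed. For Acta1 the value was -0.12 without DMSO+AB mouse 3, -0.34 without Hispidulin+AB mouse 1 and -1.14 without DMSO+AB mouse 1, none of which passed. The sign for Myh7 rested on DMSO+AB mouse 2, with a log2 fold change of 0.16 (adjusted p = 0.99) when it was left out.

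The within-mouse ratios gave a log2 difference of -0.51 for Acta1/Actc1 (exact permutation p = 0.4) and of -0.61 for Myh7/Myh6 (exact permutation p = 0.6) between these groups. Without DMSO+AB mouse 3 the first was -0.08, and without DMSO+AB mouse 2 the second was 0.09. The mean FPKM of Acta1 was 2974 ± 1164 (SD, n = 3) in Hispidulin+AB and 5114 ± 3405 in DMSO+AB, and the groups overlapped, with DMSO+AB mouse 3 far above the rest.

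In Sham hearts no member passed, the log2 fold change being -1.14 for Myh7 (95% confidence interval -2.50 to 0.21), 0.48 for Acta1 (-0.46 to 1.42) and 0.68 for Actc1 (-0.08 to 1.45). With 1 mouse left out, Actc1 ranged from 0.11 without DMSO+Sham mouse 3 to 1.06 without DMSO+Sham mouse 2, Myh7 from -1.79 without DMSO+Sham mouse 1 to -0.60 without DMSO+Sham mouse 3, and Acta1 from 0.28 without Hispidulin+Sham mouse 1 to 0.66 without DMSO+Sham mouse 2, and none passed. No gene passed by limma in this comparison (0%), with 287 genes at an unadjusted p under 0.05, and the groups of all 5 members overlapped, against 5.6% of all genes without overlap. Set side by side by replicate number, a pairing taken from these data, Myh6, Myh7b, Acta1 and Actc1 were higher with hispidulin in 3 of 3 pairs. So were 9.52% of all genes, and Myh7 was higher in 1 of the 3 pairs so numbered. With that number as a block in limma, the unadjusted p was 0.429 for Myh6, 0.123 for Myh7b, 0.283 for Acta1, 0.0698 for Actc1 and 0.042 for Myh7, with an adjusted p of 0.99998 for each. The interaction was -1.10 for Acta1 (95% confidence interval -2.43 to 0.23, adjusted p = 0.9995) and 0.76 for Myh7 (-1.15 to 2.68). With 1 mouse left out it ranged for Acta1 from -1.61 without DMSO+AB mouse 1 to -0.59 without DMSO+AB mouse 3, and for Myh7 from 0.059 without DMSO+AB mouse 1 to 1.41 without DMSO+Sham mouse 1. No gene passed for it by limma (0%), with 289 genes at an unadjusted p under 0.05. The 5 red blood cell markers each differed in the same direction, none passing the test. Their median log2 fold change was 0.83 between the Sham groups, -0.77 between Hispidulin+AB and Hispidulin+Sham and -1.01 in the interaction, and their summed level was 2688 to 4391 FPKM in DMSO+Sham, 3451 to 10251 in Hispidulin+Sham, 3554 to 4624 in DMSO+AB and 2237 to 4981 in Hispidulin+AB. Of 8 fibroblast markers, none passing in these comparisons, 7 were lower with hispidulin after AB (median log2 fold change -0.34) and 8 were negative in the interaction (median -0.89). The part of these markers in the values of the members was not tested. These comparisons share mice with those of AB against Sham, so their values are not independent of them.

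The adult filament partners of these isoforms had log2 fold changes between -0.34 and 0.56 in the DMSO arm. Of 8 such genes tested, 0 passed in the DMSO arm, against 5.21% of all genes, and 3 passed over both arms, all higher after AB, against 3.52% of all genes as higher. They were Tnnc1, the calcium-binding troponin C, with a log2 fold change of 0.31 (SE 0.08, adjusted p = 0.0287), Mybpc3, cardiac myosin-binding protein C, with 0.47 (SE 0.11, adjusted p = 0.0293), and Actn2, alpha-actinin of the Z-disc, with 0.29 (SE 0.06, adjusted p = 0.0194). The ventricular light chain Myl2 had 0.01 and the cardiac troponin T gene Tnnt2 had -0.10, neither passing. The median log2 fold change of the 8 genes in the DMSO arm was 0.12, against -0.03 for all genes tested.

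Of 21 other developmental or skeletal filament genes, 12 reached the level needed for the test. In the DMSO arm 2 passed as higher and 1 as lower after AB, against 2.5% and 2.71% of all genes, with a median log2 fold change of 0.08, beside -0.03 for all genes tested. The higher ones were Myl1, a fast skeletal myosin light chain gene (1.16, SE 0.29, adjusted p = 0.0407), and Mybpc2, fast skeletal myosin-binding protein C (0.99, SE 0.23, adjusted p = 0.0325). The lower one was Tnni2, fast skeletal troponin I (-0.89, SE 0.20, adjusted p = 0.0269). Skeletal isoforms thus passed in both directions. Over both arms Mybpc2 (1.10, adjusted p = 0.00379) and Tpm2, beta tropomyosin (0.60, adjusted p = 0.0256), passed as higher and Tnni2 (-0.67, adjusted p = 0.0156) as lower, against 3.52% and 3.87% of all genes.

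Mybpc2 was low, and its levels did not overlap between AB and Sham in either arm, against 17.9% of all genes in the DMSO arm and 20.9% in the hispidulin arm. Its FPKM in mice 1, 2 and 3 was 5.41, 11.2 and 7.58 in DMSO+Sham and 14.8, 16.65 and 17.8 in DMSO+AB. It was 4.53, 8.62 and 7.35 in Hispidulin+Sham and 16.6, 15.4 and 18.0 in Hispidulin+AB. The 6 AB mice lay closer together than the 6 Sham mice.

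The embryonic and perinatal myosin genes Myh3 and Myh8 and the fast skeletal myosin genes Myh1, Myh2 and Myh4 were all at or below 0.1 FPKM in every mouse. Of 11 skeletal muscle markers, 9 were under 1 FPKM in every mouse, and Myh4 was listed at 0 in all mice but DMSO+AB mouse 1. Their summed level was 3.74 to 6.46 FPKM in DMSO+Sham, 2.38 to 3.78 in DMSO+AB, 4.51 to 4.69 in Hispidulin+Sham and 2.91 to 3.79 in Hispidulin+AB. The group medians were 4.70 and 4.60 after Sham surgery and 3.48 and 3.40 after AB, beside an Acta1 of 1893 to 8828 FPKM in the AB mice.

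**Figure D4:**
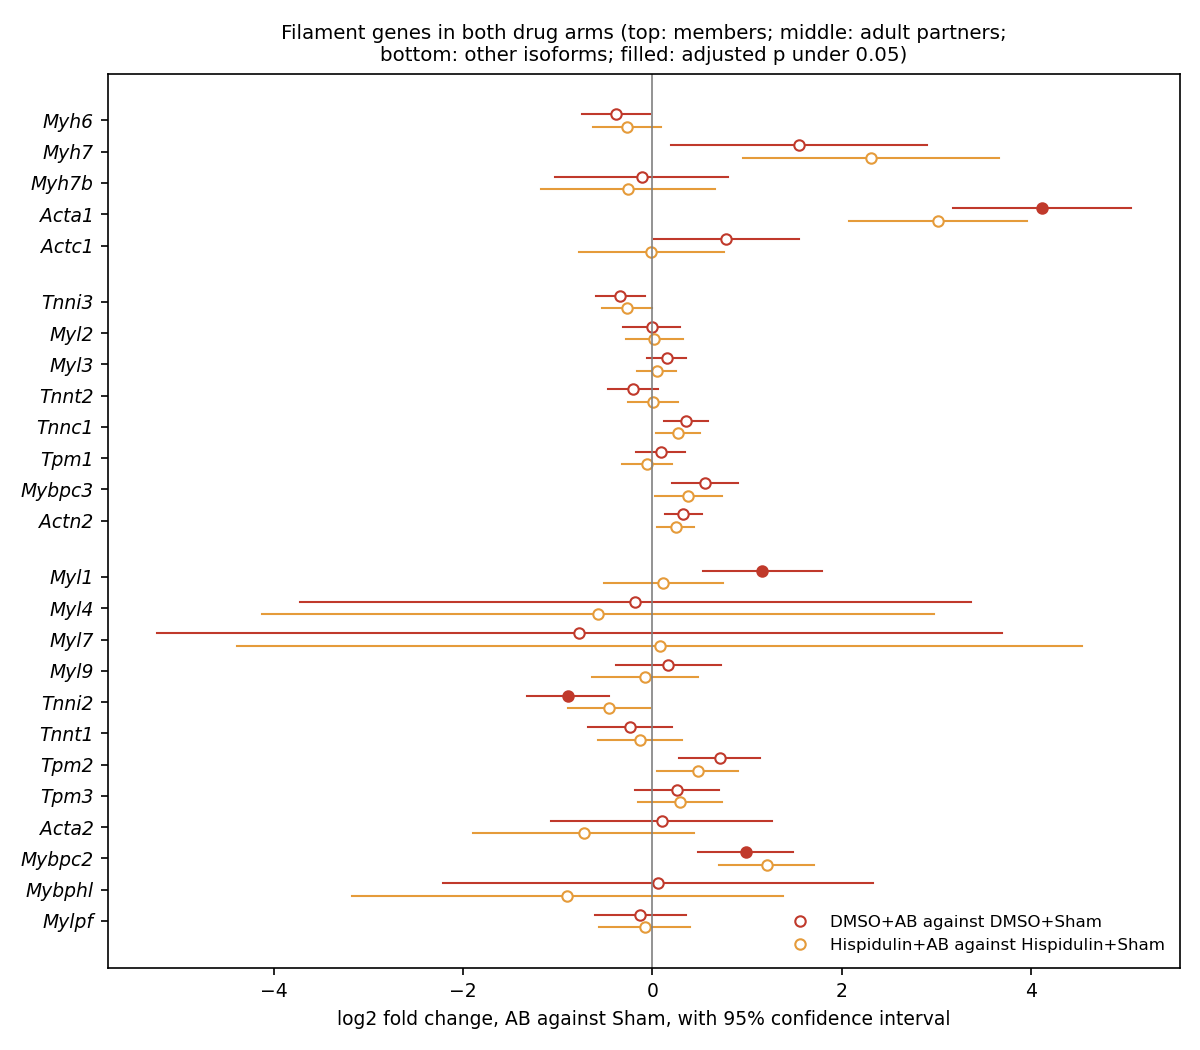
Log2 fold change after AB with its 95% confidence interval in the DMSO arm and in the hispidulin arm, for the 5 tested isoform genes (top), 8 adult filament partners (middle) and 12 other filament isoforms (bottom), from limma on log2(FPKM + 1). Filled points, with adjusted p under 0.05, are Acta1, Myl1, Tnni2 and Mybpc2 in the DMSO arm, and the widest intervals are those of the atrial genes Myl4 and Myl7.

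Of 32 genes known to act on isoform expression, 30 were tested, and 0 passed in the DMSO arm (5.21% of all genes) or in the hispidulin arm (0%). Over both arms 1 passed as higher and 2 as lower after AB, 3 of 30 against 7.39% of all genes in either direction. The higher one was Rcan1, a calcineurin-responsive inhibitor of calcineurin, with a log2 fold change of 1.63 (SE 0.36, adjusted p = 0.0197). The lower ones were Hdac4, a class II histone deacetylase, with -0.40 (SE 0.09, adjusted p = 0.0248), and Tbx5, a T-box transcription factor, with -0.61 (SE 0.13, adjusted p = 0.0163). The genes of the factors that bind the motifs above did not pass, Srf having 0.19 (adjusted p = 0.382) and Tead1 0.14 (adjusted p = 0.42). Thyroid hormone receptor genes, whose products with bound hormone favour Myh6 over Myh7, had -0.19 for Thra (adjusted p = 0.18) and -0.41 for Thrb (adjusted p = 0.0876). The median over the 30 genes in the DMSO arm was -0.04, beside -0.03 for all genes tested.

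Some cell type markers moved with AB beside the members. Of 7 cardiomyocyte markers, Ryr2, the calcium release channel of the sarcoplasmic reticulum, passed as lower in the DMSO arm (log2 fold change -0.59, adjusted p = 0.0364), against 2.71% of all genes. Over both arms 2, Mybpc3 and Actn2, passed as higher and Ryr2 as lower, against 3.52% and 3.87% of all genes. Of 8 fibroblast markers, 3 passed as higher in the DMSO arm, against 2.5% of all genes, among them the matricellular gene Postn (log2 fold change 3.08, adjusted p = 0.0197), and their summed level was 346 to 448 FPKM in DMSO+Sham, 406 to 987 in DMSO+AB, 353.5 to 483 in Hispidulin+Sham and 407 to 656 in Hispidulin+AB. Of 5 smooth muscle markers, Tagln, an actin-binding protein gene, passed as higher over both arms (0.49, adjusted p = 0.043), against 3.52% of all genes. Over both arms 2 of the 5 were higher and 3 lower (median log2 fold change -0.05), and 0 passed in the DMSO arm. Of the atrial markers, Nppa, the atrial natriuretic peptide gene that overloaded ventricles also express, passed as higher in the DMSO arm (4.54, adjusted p = 0.0121), and the other 5 tested did not. The share of all genes was 2.5%. In that arm 2 of the 6 tested were higher and 4 lower (median log2 fold change -0.28). Over both arms Nppa passed as higher and Tbx5 as lower, against 3.52% and 3.87% of all genes. The part of these markers in the change of the members was not tested.

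Fewer of the calls of listed genes other than the members were made when mice were left out. Without the 3 mice with Myl7 over 20 FPKM, 0 of the 8 called in the DMSO arm and 0 of the 16 called over both arms passed by limma, and all kept their direction. Their log2 fold changes were then 74.3% to 98.9% of those with all mice in the DMSO arm (median 87.1%) and 86.4% to 122% over both arms (median 99%), in fits with 9 mice in place of 12. Without DMSO+Sham mouse 3, 2 of the 8 and 12 of the 16 passed, with log2 fold changes at 79.5% to 106% and 83.5% to 113% of those with all mice. With each mouse of a comparison left out in turn, 0 of the 8 passed every time in the DMSO arm, and 5 of the 16 did over both arms, which were Tnni2, Mybpc2, Tbx5, Nppa and Postn. Without the 3 mice with Myl7 over 20 FPKM, Acta1 had a log2 fold change of 4.12 in the DMSO arm (adjusted p = 0.0332) and Myh7 of 1.01 (adjusted p = 0.531).

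The number series gave the same direction for Acta1 and Myh7 as the pooled mice. For Acta1 in the DMSO arm the log2 difference was 4.78 with 1 mouse on each side and 3.87 with 2 AB mice and 1 Sham mouse. Myh7 differed by 1.67 and 0.31 in these series. Actc1 differed by 0.18 and 1.85, and Myh7b by -1.24 and 1.27, so that Myh7b changed sign between the series. With the series as a covariate, Acta1 passed in the DMSO arm (4.18, adjusted p = 0.0125) and over both arms, and Myh7 did not pass over both arms (1.62, adjusted p = 0.0592). DMSO+Sham mouse 1 was alone in its series, so it entered neither series above and its value was absorbed by the covariate. In the DMSO arm Myh7 had a log2 fold change of 0.914 with the covariate and 0.905 without that mouse.

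The genes whose log2(FPKM + 1) followed the members most closely over the 12 mice differed between Acta1 and Myh7. For Acta1 they were Aqp8 (Pearson r = 0.97), Hspb6 (0.96), Haus8 (0.96), Ankrd23 (0.96) and Adamtsl2 (0.95). Hspb6 encodes a small heat-shock protein abundant in muscle, and Ankrd23 a stretch-responsive ankyrin repeat protein of the sarcomere. For Myh7 they were Cd63 (0.95), Cavin3 (0.93), Hspa1l (0.93), Carhsp1 (0.92) and Rab31 (0.92), and for Myh6 they were Crat (0.94), Dgat2 (0.93), Plxnb1 (0.93), Kdm6b (0.92) and Pm20d1 (0.91). Crat and Dgat2 encode enzymes of acyl-carnitine and triglyceride metabolism. These are descriptions over mice that share libraries and the operation, and the highest Acta1 (DMSO+AB mouse 3) and the highest Myh7 (DMSO+AB mouse 2) were in different mice.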

How the data were processed

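Left ventricular RNA of 12 mice was profiled in 4 groups, taken from the sample labels. The authors deposited FPKM for 18079 genes, rounded to 0.01. Per the submitters' processing notes, HISAT2 2.0.4, Bowtie2 2.2.5, RSEM 1.2.12 and DESeq2 1.4.5 were named. The genome build and annotation are not given in the sources used here. FPKM is scaled to each library's reads, so that a few abundant genes affect the others, and sequencing depth is unknown.

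Symbols were matched for 17947 genes (99.3%). In R 4.3.3 with limma 3.58.1, log2(FPKM + 1) was fitted with 1 mean per group in all libraries, for the 11664 genes with FPKM of at least 1 in at least 3 libraries, with eBayes, a mean-variance trend, two-sided tests and Benjamini-Hochberg adjustment at 0.05. The AB effect over both arms was the mean of the arms' differences. Ratios were compared by exact two-sided permutation in Python 3.11.15, with labels permuted within arms over both arms, adjusted over 30 tests. The main limma fit and the permutation over both arms were tested on simulated data, and the alternative fits were not. The mice carry no shared litter or batch in the labels, and p-values measure the spread between these mice.

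Replicate numbers belong to different mice. Deviations of mice with the same number correlated by 0.148, 0.197 and 0.228 between the hispidulin groups and by 0.126, 0.330 and 0.232 between the Sham groups, all over 0.1, so the pairing comes from the data in these 2 comparisons. This did not hold in the others. The alternatives were a replicate block, another pseudocount, other filters, scalings and fits, library weights, the number series as covariate and each replicate left out. The number series as covariate also takes DMSO+Sham mouse 1 out of the comparison, since that mouse is alone in its series. The alternative without 3 libraries was chosen after seeing the data. The members and gene lists were chosen with earlier results of these data known. Genes named were the members, Tnni3, list genes that passed or had the largest changes, and the 5 genes most correlated with Acta1, Myh7 and Myh6. Myl2, Tnnt2, Srf, Tead1, Thra, Thrb, the skeletal and perinatal myosins, Mhrt, the marker genes and those of the closing section were named outside this rule, after their values were seen.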

Additional observations from a re-analysis of the deposited data

How the results depend on the processing

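For the members, 517 of 560 values under an alternative kept their direction and side of the threshold. Of the within-mouse values, 328 of 342 kept their direction and none passed. Where 3 mice are set against 3 this says nothing of calls, since such a test cannot pass. The tests over both arms and of the interaction could pass. The lowest adjusted p of the permutation over both arms was 0.05, at the threshold and not under it. The genes called in the DMSO arm (608) became 383 with no filter, 1423 with library weights, 142 with the number series as covariate, 11 with only the libraries compared and 20 without the 3 libraries with Myl7 over 20 FPKM, and 91 to 1050 with 1 mouse left out (91 without DMSO+Sham mouse 1, 1050 without DMSO+Sham mouse 2, 953 without DMSO+AB mouse 1, 104 without DMSO+AB mouse 2, 190 without DMSO+AB mouse 3). Over both arms (862) they became 2535 with library weights, 547 with the number series and 73 without those 3 libraries, and 373 to 1210 with 1 mouse left out (457 without DMSO+Sham mouse 1, 436 and 408 without Hispidulin+Sham mice 1 and 2, 507 without DMSO+AB mouse 2, 443 and 373 without Hispidulin+AB mice 1 and 3). In the hispidulin arm (0) they became 2 with no filter, 2 with median-of-ratios scaling, 3 with quantile normalization, 209 with library weights, 17 with the replicate block and 49 with only the libraries compared, and 0 to 3 with 1 mouse left out (3 without Hispidulin+AB mouse 2). Between Hispidulin+AB and DMSO+AB (0) they became 2 with no filter and 0 to 20 with 1 mouse left out, and for the interaction (0) 0 to 3, the 20 and the 3 without DMSO+AB mouse 1. The replicate block changed no member's call beyond Acta1 in the hispidulin arm. The cause of these moves was not tested, except that fewer libraries enter some fits.

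Some values that had not passed changed sign. The Actc1 log2 fold change in the hispidulin arm was 0.0034 with median-of-ratios scaling, 0.038 with quantile normalization and 0.17 with the number series, and -0.11 to 0.038 with 1 mouse left out. For Myh7b it was 0.17 in the DMSO arm and 0.032 over both arms with the number series, and with 1 mouse left out -0.73 to 0.29 in the DMSO arm, -0.49 to 0.018 over both arms and -0.052 to 0.97 between the Sham groups. Interactions changed sign for Myh7 (-0.51) and Myh7b (0.10) with library weights and for Myh6 (-0.22) without the 3 libraries, and spanned -0.044 to 0.24 for Myh6 and -0.55 to 0.47 for Myh7b with 1 mouse left out. Between Hispidulin+AB and DMSO+AB, Myh7 was 0.25 and log2 Myh7/Myh6 0.21 without the 3 libraries, and -1.08 to 0.16 and -1.45 to 0.093 with 1 mouse left out. Log2 Tnni1/Tnni3 between the Sham groups was -0.036 with 1 added to each FPKM, -0.30 without the 3 libraries and -0.30 to 0.34 with 1 mouse left out, and log2 Acta1/Actc1 there was -0.45 to 0.24. Interactions of log2 Myh7/Myh6, Acta1/Actc1, Tnni1/Tnni3 and Myh6 + Myh7 spanned -0.17 to 1.43, -0.81 to 0.13, -0.61 to 0.048 and -0.067 to 0.17, and the last was -0.20 without the 3 libraries. Depth is unknown, so that no counting error can be set on the low Tnni1 values.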

Other observations

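The library of DMSO+Sham mouse 3, lowest for Actc1 and Myh7b, was lower than each other library by over 1 on the log2 scale for 17 genes, of which 3 were picked here after their values were seen. Lmod3, which encodes the thin filament protein leiomodin, was at 11.5 FPKM there and at 34.0 to 54.7 in the other 11 mice. Fhl2, a LIM protein of the sarcomere, was at 416 against 871 to 1345, and the tubulin gene Tuba4a was at 64.2 against 199 to 369. The summed macrophage markers ranged from 122 to 286 FPKM in DMSO+Sham and from 132 to 243 in the other groups. Among deiodinase genes, which set tissue thyroid hormone, Dio2 was at 0.11 to 0.24 FPKM in the 6 Sham mice and at 0.43 to 5.10 in the 6 AB mice. It was too low for the test, and 4.96% of the genes tested did not overlap between AB and Sham. Its highest value was in DMSO+AB mouse 2. Dio3 was at 0 to 0.24 FPKM in DMSO+AB and at 0 to 0.08 in DMSO+Sham. The part of either gene in the values of the members was not tested. Both genes were picked after their values were seen.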
